A study of Mus musculus with 9 samples.

Results

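Progression of a cell from G1, the phase before DNA synthesis, into S phase is controlled by a small set of proteins, and the mRNAs of 10 of their genes were followed here in NIH-3T3 cells. They were the D cyclins Ccnd1, Ccnd2 and Ccnd3, the E cyclins Ccne1 and Ccne2, the kinases Cdk4 and Cdk2, the ubiquitin ligase subunit Skp2, and the transcription factors E2f1 and E2f2. The genes were taken by name, and no threshold on their values was used. They and the lists below were chosen with earlier results of these data known. Their counts beside those of all genes are therefore descriptions and no test of the group. Each of the 10 genes had 1 probe set annotated to it alone. Members were thus 10 of the 28853 probe sets and 10 of the 19938 genes with a usable name. All 10 passed the level filter, a mean over the 9 arrays above the 40th percentile of all genes, which left 11963 genes for testing.

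NIH-3T3 is an immortal line of mouse embryonic fibroblasts. All cells were grown in serum and transfected with 25 nM of RNA using the lipid reagent DharmaFECT 1, and RNA was taken 48 hours later. The mimic group received a synthetic RNA that acts as the microRNA mmu-miR-378-3p, the inhibitor group an RNA that blocks it, and the control group a RISC-free siRNA, which the silencing complex cannot take up. There were 3 arrays in each group. The control group was the only reference, and a mimic or inhibitor of another sequence was not analysed here, so an effect of the microRNA and an effect of transfecting any mimic or any inhibitor cannot be told apart. NIH-3T3 cells are known to lack the Cdkn2a locus, which encodes an inhibitor of Cdk4, and the line has therefore lost one of the brakes on the pathway described here. No label states that the triplicates were separate cultures, and p-values therefore reflect the spread among these 9 samples, part or all of which may be technical.

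Cyclin D proteins bind Cdk4 and Cdk6 in response to growth factors, and the complexes phosphorylate the retinoblastoma protein. This releases E2F factors, which switch on Ccne1, Ccne2 and the genes of DNA replication. Cyclin E with Cdk2 then drives entry into S phase. Skp2 is the F-box subunit of an SCF ubiquitin ligase that marks the Cdk inhibitor p27, the product of Cdkn1b, for degradation. E2f1 and E2f2 are activating members of the E2F family. In fibroblasts, Ccnd1 is known to respond to serum and to the MAP kinase pathway.

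Promoter sequences are shown for Skp2 and Ccne1, whose mRNAs passed a test against control, and for Cdk4, Cdk2 and E2f2, whose mRNAs did not. Cdk2 did pass between mimic and inhibitor. RefSeq promoter windows on GRCm38.p6, each from 250 bases before to 50 bases after a start site, were matched for 7 of the 10 genes, with 10 windows in all. The search covered both strands for 4 forms of the E2F binding motif (TTTGGCGC, TTTCGCGC, TTTCCCGC and TTTGCCGC, none of which overlaps CACGTG) and for the E-box CACGTG, the motif bound by Myc. Any of the 4 E2F forms occurred in 2.26% of 32851 windows of this length, and CACGTG in 7.15%. Capitals mark a match, and letters run 5′ to 3′ along the gene's strand.
Skp2, inner start, 14971 bases inside the gene, chr15:9140405-9140704, minus strand: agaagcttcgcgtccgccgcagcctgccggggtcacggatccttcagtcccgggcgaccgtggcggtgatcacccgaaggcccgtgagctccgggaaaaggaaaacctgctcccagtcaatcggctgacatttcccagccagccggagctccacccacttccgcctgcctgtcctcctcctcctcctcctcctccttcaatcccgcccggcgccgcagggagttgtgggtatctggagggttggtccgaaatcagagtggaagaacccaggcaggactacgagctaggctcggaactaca
Ccne1, chr7:38107441-38107740, minus strand: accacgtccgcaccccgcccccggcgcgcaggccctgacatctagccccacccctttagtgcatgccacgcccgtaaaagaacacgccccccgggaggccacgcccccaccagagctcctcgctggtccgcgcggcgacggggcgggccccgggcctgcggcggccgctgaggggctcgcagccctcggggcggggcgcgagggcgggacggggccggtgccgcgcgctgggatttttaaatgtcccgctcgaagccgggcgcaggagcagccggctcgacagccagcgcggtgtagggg
Cdk4, chr10:127063285-127063584, plus strand: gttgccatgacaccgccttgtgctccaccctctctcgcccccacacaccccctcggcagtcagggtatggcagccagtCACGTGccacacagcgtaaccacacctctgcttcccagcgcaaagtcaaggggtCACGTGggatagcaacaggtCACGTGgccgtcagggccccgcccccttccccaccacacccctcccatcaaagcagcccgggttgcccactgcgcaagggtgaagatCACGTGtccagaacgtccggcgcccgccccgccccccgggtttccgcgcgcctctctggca
Cdk2, chr10:128705002-128705301, minus strand: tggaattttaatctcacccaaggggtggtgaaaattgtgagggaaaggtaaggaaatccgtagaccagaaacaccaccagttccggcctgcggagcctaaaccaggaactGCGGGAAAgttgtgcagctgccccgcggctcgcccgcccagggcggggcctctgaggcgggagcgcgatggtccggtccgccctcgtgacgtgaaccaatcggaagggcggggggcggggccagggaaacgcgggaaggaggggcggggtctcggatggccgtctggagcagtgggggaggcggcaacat
E2f2, chr4:136172024-136172323, plus strand: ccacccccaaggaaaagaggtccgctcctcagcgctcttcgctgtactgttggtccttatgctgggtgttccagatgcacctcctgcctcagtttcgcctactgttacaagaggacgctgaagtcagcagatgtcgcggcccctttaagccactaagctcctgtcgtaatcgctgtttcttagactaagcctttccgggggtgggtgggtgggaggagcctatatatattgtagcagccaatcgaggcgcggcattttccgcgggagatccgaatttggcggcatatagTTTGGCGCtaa
Cdk4 held 4 copies of CACGTG, the capitals beginning at -172, -118, -98 and -11, where the first transcribed base is 1 and the base before it -1. The Cdk2 window held TTTCCCGC on the opposite strand, with its first printed capital at -140. The E2f2 window shown held TTTGGCGC at 40, within the first bases of the transcript. Neither Ccne1 nor either of the 2 Skp2 windows held a match, nor did the E2f1 window, whose start site lies 466 bases inside the gene, the second E2f2 window, with a start site 8508 bases inside the gene, or the 2 Ccnd3 windows. A match is a description of these letters, and the arrays did not measure binding.

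The level of each probe set is given on the log2 scale of RMA, on which a difference of 1 is a doubling. Levels of different probe sets are not directly comparable, so every test compared a gene only with itself across arrays. The level filter, the marker percentiles and the marker sums set probe sets side by side and are rough guides only. The defining markers fitted the fibroblast label: 8 of 8 fibroblast markers lay at or above the 86.8th percentile of all genes, and Ptprc, Adgre1, Epcam, Cdh1, Cdh5, Kdr and Myog, which mark blood cells, macrophages, epithelium, endothelium and muscle, lay below the level filter, while the other 7 markers of those cell types averaged 3.98 to 4.89. The summed fibroblast markers overlapped between groups. The summed muscle markers (Myod1, Myog and Acta1) were at 6.03 to 6.07 on the mimic arrays, 5.79 to 5.98 on the inhibitor arrays and 5.86 to 6.01 on the control arrays, and their part in the results was not tested. On the first principal component of all tested genes, with 60.5% of the variance, mimic 3 (-20.5) and inhibitor 1 (20.9) stood farthest from the controls (-4.38 to -2.78).

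Between mimic and control, 1 of the 10 genes passed the test at an adjusted p of 0.05, and this was Skp2, which was lower in mimic cells. The same test called 3.55% of all genes in either direction, 1.1% as higher and 2.45% as lower. Between inhibitor and control, 6 of the 10 genes passed, all higher in inhibitor cells: Ccnd1, Ccne1, Ccnd2, Skp2, E2f1 and Ccne2. Across all genes 14.9% passed there, 11.1% as higher and 3.76% as lower. Between mimic and inhibitor, 8 of the 10 passed, 7 lower and 1 higher in mimic cells, against 26.8% of all genes, 19.9% lower and 6.91% higher. The median log2 difference of the 10 genes was -0.09 for mimic minus control, 0.25 for inhibitor minus control and -0.31 for mimic minus inhibitor, where the medians over all tested genes were -0.01, 0.01 and -0.02. Without mimic 3 the first of these medians over the 10 genes was -0.03. The genome-wide split of calls depended on scaling: after quantile normalization it was 335 higher and 439 lower for mimic against control, 1269 higher and 1022 lower for inhibitor against control, and 1670 higher and 2029 lower for mimic against inhibitor, where the values as deposited gave 132 and 293, 1330 and 450, and 827 and 2377. The comparisons share arrays, so they are not independent of each other. In RNA from a whole culture, a change in the share of cells in a phase of the cycle and a change in mRNA per cell cannot be told apart.

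**Figure D1:**
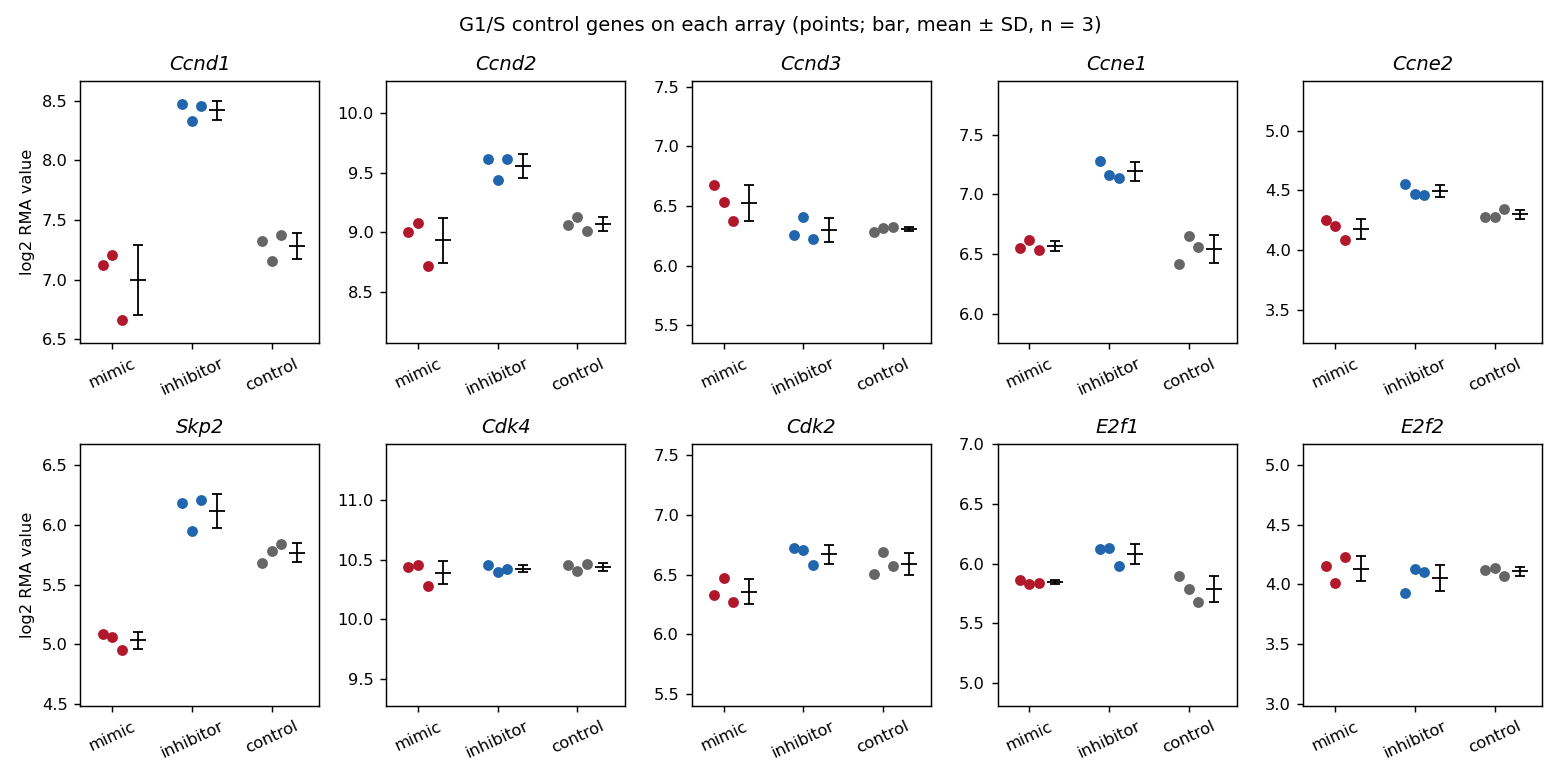
Log2 RMA level of each of the 10 genes on each array, with mimic, inhibitor and control from left to right in every panel. Points are single arrays, black bars are means ± SD (n = 3), and every panel spans the same log2 range. Skp2 runs from 4.95 to 5.09 on the mimic arrays, 5.95 to 6.21 on the inhibitor arrays and 5.68 to 5.84 on the control arrays, and Ccnd1 lies above 8 on the inhibitor arrays alone.

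Ccnd1, which encodes the growth factor responsive cyclin D1, had log2 levels of 7.12, 7.20 and 6.66 on the mimic arrays, 8.47, 8.33 and 8.46 on the inhibitor arrays, and 7.32, 7.16 and 7.37 on the control arrays. All inhibitor arrays were above all others, while mimic and control overlapped and mimic 3 was the lowest array. Ccnd1 was 2.20-fold higher in inhibitor than in control cells (log2 difference 1.14, SE 0.12, limma adjusted p = 0.000369), and it ranked 9 of 11963 genes by the size of the absolute difference. The mimic differed from control by -0.29 (95% interval -0.56 to -0.01, adjusted p = 0.288), which did not pass the test over all genes. Without mimic 3 this difference was -0.12. Set against inhibitor cells, Ccnd1 in mimic cells was at -1.42 (SE 0.12, adjusted p = 5.53e-05).

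Ccnd2, the second D cyclin, showed a smaller difference in the same comparison. Its levels were 9.002, 9.076 and 8.718 on the mimic arrays, 9.62, 9.44 and 9.61 on the inhibitor arrays, and 9.06, 9.13 and 9.01 on the control arrays. The inhibitor arrays again lay above the rest without overlap, and mimic 3 was again the lowest. Ccnd2 was 1.40-fold higher in inhibitor than in control cells (0.49, SE 0.09, adjusted p = 0.00541). In mimic cells it differed from control by -0.14 (95% interval -0.33 to 0.06, adjusted p = 0.525), and by -0.03 without mimic 3. The mimic minus inhibitor difference was -0.62 (SE 0.09, adjusted p = 0.00078).

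Ccnd3, the D cyclin best known from lymphocytes and muscle, was not called against control in either group. It stood at 6.67, 6.53 and 6.37 on the mimic arrays, 6.26, 6.41 and 6.22 on the inhibitor arrays, and 6.28, 6.31 and 6.32 on the control arrays. Each mimic array was above each control array, while inhibitor and control overlapped. Mimic minus control was 0.22 (SE 0.08, adjusted p = 0.180), which did not pass. Without mimic 3 it was 0.30 and passed (adjusted p = 0.0322). Mimic minus inhibitor was 0.23 (adjusted p = 0.0497), a call on overlapping arrays that was kept in 2 of the 9 fits that each left out 1 array, those without mimic 3 and without inhibitor 2. Inhibitor minus control was -0.01 (95% interval -0.18 to 0.16).

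Cdk4, the catalytic partner of the D cyclins, had values in a narrow band. The arrays read 10.44, 10.45 and 10.28 for mimic, 10.45, 10.40 and 10.42 for inhibitor, and 10.46, 10.40 and 10.46 for control. All groups overlapped. The differences were -0.05 for mimic minus control (95% interval -0.17 to 0.07), -0.02 for inhibitor minus control (-0.14 to 0.11) and -0.03 for mimic minus inhibitor (-0.16 to 0.09), so that differences beyond 0.17 in size lay outside these intervals. The Cdk4 intervals do not reach the Ccnd1 difference in the inhibitor comparison.

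Ccne1 encodes cyclin E1, the activator of Cdk2 at the start of S phase. Its levels were 6.55, 6.62 and 6.54 on the mimic arrays, 7.28, 7.17 and 7.14 on the inhibitor arrays, and 6.42, 6.65 and 6.56 on the control arrays. The inhibitor arrays stood apart, and the mimic arrays lay within the range of the controls. Ccne1 was 1.57-fold higher in inhibitor than in control cells (0.65, SE 0.07, adjusted p = 0.000281). Mimic minus control was 0.03 (95% interval -0.12 to 0.17, adjusted p = 0.902). The difference between mimic and inhibitor was -0.63 (SE 0.07, adjusted p = 0.00016).

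The probe set of Ccne2, the second E cyclin, had low values close to the level filter of 3.86. It gave 4.25, 4.20 and 4.08 on the mimic arrays, 4.55, 4.47 and 4.46 on the inhibitor arrays, and 4.27, 4.28 and 4.34 on the control arrays. The groups did not overlap and were ordered mimic, control, inhibitor, an order that 3.99% of all tested genes had and that Skp2 shared among the 10 genes. Inhibitor minus control was 0.19 (SE 0.06, adjusted p = 0.0414), a call that was lost without any 1 of the control or inhibitor arrays (adjusted p up to 0.135). Mimic minus control was -0.12 (adjusted p = 0.326, and -0.074 without mimic 3) and did not pass. Between mimic and inhibitor it was -0.32 (SE 0.06, adjusted p = 0.00242).

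Cdk2, the kinase that cyclin E activates, passed the test between mimic and inhibitor and in neither comparison with control. It read 6.33, 6.48 and 6.27 on the mimic arrays, 6.72, 6.71 and 6.58 on the inhibitor arrays, and 6.51, 6.69 and 6.58 on the control arrays. The mimic arrays lay below both other groups without overlap. Mimic minus inhibitor was -0.31 (SE 0.07, adjusted p = 0.00883). The differences from control were -0.23 for mimic (95% interval -0.39 to -0.08, adjusted p = 0.113, and -0.19 without mimic 3) and 0.08 for inhibitor (-0.08 to 0.23, adjusted p = 0.536).

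Among the 10 genes, Skp2 alone was called in all 3 comparisons. Its levels were 5.09, 5.06 and 4.95 on the mimic arrays, 6.18, 5.95 and 6.21 on the inhibitor arrays, and 5.68, 5.78 and 5.84 on the control arrays. Every mimic array was below every control array, and every inhibitor array above. Skp2 was 1.67-fold lower in mimic than in control cells (-0.74, SE 0.08, adjusted p = 0.00133) and ranked 12 of 11963 genes by absolute difference. The call was kept in each of the 9 fits without 1 array, and without mimic 3 the difference was -0.69. In inhibitor cells Skp2 was 1.27-fold higher than in control cells (0.35, SE 0.08, adjusted p = 0.0137). That call was lost without control 1 (adjusted p = 0.0638), inhibitor 1 (0.0537) or inhibitor 3 (0.0602). Mimic and inhibitor cells differed by -1.08 (SE 0.08, adjusted p = 2.28e-05), a 2.12-fold difference.

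E2f1, an activating E2F factor, passed the test in both comparisons with the inhibitor group. It stood at 5.86, 5.83 and 5.83 on the mimic arrays, 6.13, 6.14 and 5.98 on the inhibitor arrays, and 5.90, 5.78 and 5.68 on the control arrays. The inhibitor arrays were above the rest, and the mimic arrays lay inside the control range. E2f1 was 1.23-fold higher in inhibitor than in control cells (0.30, SE 0.06, adjusted p = 0.0129), a call lost without control 3 (adjusted p = 0.0572). Mimic minus control was 0.06 (95% interval -0.09 to 0.20). The mimic minus inhibitor value was -0.24 (adjusted p = 0.0202), which did not pass without inhibitor 1 (0.0681) or inhibitor 2 (0.0628).

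E2f2, also an activating E2F, showed no difference past the test. Its probe set read 4.15, 4.02 and 4.23 on the mimic arrays, 3.93, 4.13 and 4.11 on the inhibitor arrays, and 4.12, 4.14 and 4.07 on the control arrays, near the level filter. The 3 groups overlapped. The 95% intervals were -0.13 to 0.18 for mimic minus control, -0.21 to 0.10 for inhibitor minus control and -0.08 to 0.23 for mimic minus inhibitor.

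**Figure D2:**
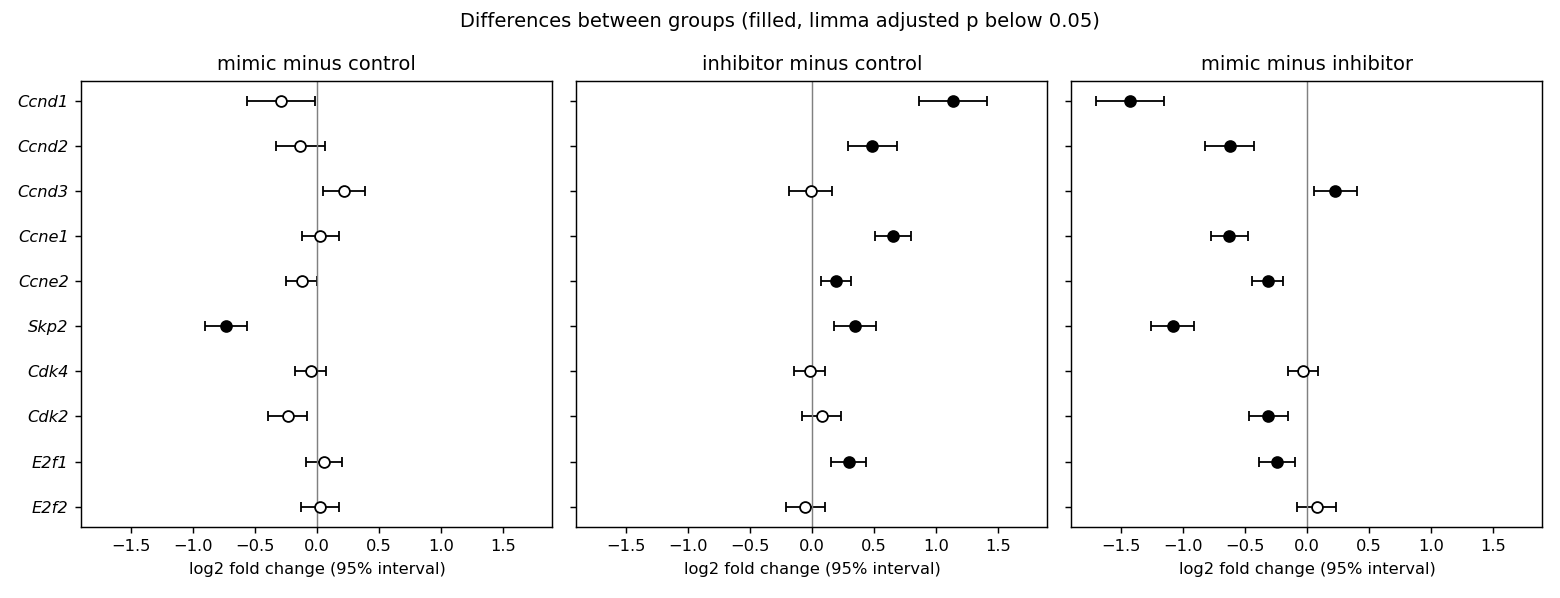
Log2 difference of each of the 10 genes in the 3 comparisons, mimic minus control, inhibitor minus control and mimic minus inhibitor. Points are limma estimates, lines their 95% intervals, and filled points passed the adjusted p of 0.05. Skp2 lies at -0.74, 0.35 and -1.08, Ccnd1 at -0.29, 1.14 and -1.42, and Cdk4 and E2f2 lie near 0 in all 3.

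By overlap of arrays, 4 of the 10 genes were separated between mimic and control (Ccnd3 above, Skp2, Ccne2 and Cdk2 below), where 21.3% of all genes were, 8.67% above and 12.7% below. Between inhibitor and control 6 of 10 were separated, all above, against 37.7% of all genes, 24.9% above and 12.8% below. Between mimic and inhibitor 7 were separated, all below, against 38.6% of all genes, 12.9% above and 25.7% below.

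The other genes of the pathway were taken from lists. Of the Cdk inhibitors, which bind and block cyclin-kinase complexes, 6 of 7 were tested. None passed between mimic and control, and 1 had an unadjusted p below 0.05, as did 1903 of all 11963 tested genes. In inhibitor cells 2 fell, and none rose, where 3.76% of all genes were called lower and 11.1% higher. Cdkn1b, which encodes p27, the substrate of Skp2, averaged 7.45 in mimic, 7.06 in inhibitor and 7.51 in control cells, with inhibitor minus control at -0.44 (adjusted p = 0.00378) and mimic minus inhibitor at 0.39 (adjusted p = 0.00393). Cdkn1b was called in inhibitor cells in each of the 9 fits without 1 array. These are mRNA levels, and p27 protein, on which Skp2 acts, was not measured by the arrays. Cdkn2d, an inhibitor of Cdk4 and Cdk6, was at -0.17 (adjusted p = 0.0465) and lost its call without any 1 of the control or inhibitor arrays, which left 1 gene. Cdkn2a, whose locus the line is known to lack, averaged 4.32 in mimic, 4.22 in inhibitor and 4.26 in control cells and was not called. It passed the level filter of 3.86, so values of this size can be background. Group means of E2f5, Fbxw7 and Fos, named below, were 3.94 to 4.37, near this level, as were Ccne2 and E2f2. The control mean of Ereg, also named below, was 4.22. The medians over the 6 genes were 0.01 for mimic minus control, -0.07 for inhibitor minus control and 0.08 for mimic minus inhibitor. The first was 0.02 without mimic 2 or control 1 and near 0 without control 2, mimic 1 or mimic 3. After quantile normalization the medians were 0.02, -0.11 and 0.10.

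Of the retinoblastoma family, the other E2F factors and their dimerization partners, 10 of 11 were tested. In mimic cells 1 passed, where 3.55% of all genes did. It was E2f5, a repressor E2F (-0.21, adjusted p = 0.0350). Of the 9 fits without 1 array, E2f5 kept its call in 2, those without mimic 3 or without inhibitor 1. In inhibitor cells 3 were higher and none lower, where 11.1% of all genes were called higher and 3.76% lower. They were E2f4, also a repressor (0.51, adjusted p = 0.00368), Rbl1, the retinoblastoma relative p107 (0.33, adjusted p = 0.0259), and E2f3, an activator (0.25, adjusted p = 0.0157). E2f4 was called in each of the 9 fits. The count was 1 without control 2, control 3, inhibitor 1 or inhibitor 3, and 5 without mimic 2 or mimic 3. Between mimic and inhibitor 7 were lower in mimic cells, against 19.9% of all genes. Among them were Rbl1 (-0.62), E2f4 (-0.54) and the atypical repressors E2f7 (-0.36) and E2f8 (-0.31). E2f8 was at -0.18 without inhibitor 1, and its call was lost without control 1, control 3, mimic 1 or mimic 2 (adjusted p up to 0.0923), while the other 3 were called in each of the 9 fits. The list medians were -0.05 for mimic and 0.21 for inhibitor, both minus control, and -0.25 for mimic minus inhibitor. The mimic median was 0.02 without mimic 3, -0.11 without mimic 2 and -0.08 without control 1, and the inhibitor median was 0.11 without inhibitor 1.

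Of 9 genes of the SCF ligase and of cyclin turnover, none passed between mimic and control. An unadjusted p below 0.05 was found for 3 of the 9, and for 1903 of all 11963 tested genes. In inhibitor cells 1 was higher, where 11.1% of all genes were called higher. It was Cul3, a cullin that acts in cyclin E degradation (0.35, adjusted p = 0.0341). The count was 0 without control 1, 2 or 3, mimic 1, inhibitor 1 or inhibitor 3, and 3 without mimic 3. Mimic minus inhibitor gave 3 lower genes, where 19.9% of all genes were called lower. They were Cul1, the scaffold of the SCF ligase (-0.42), Cks1b, which Skp2 needs to recognise p27 (-0.36), and Fbxw7, the F-box protein for cyclin E (-0.26). Fbxw7 lost its call without inhibitor 1 (adjusted p = 0.0515), which left 2 genes. In this list the medians were -0.08 and 0.07 for mimic and inhibitor minus control, and -0.13 for mimic minus inhibitor. The first was -0.02 without mimic 3, and the second 0.01 without inhibitor 1 and 0.12 without inhibitor 2. After quantile normalization the medians were -0.09, 0.0039 and -0.017.

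Among the other kinases and cyclins of the transition, 7 of 8 were tested. Ccna2, the S phase cyclin A2, averaged 7.90 in mimic, 8.36 in inhibitor and 8.31 in control cells. It was lower in mimic than in control cells (-0.40, adjusted p = 0.00364, called in each of the 9 fits without 1 array) and differed by 0.05 between inhibitor and control (adjusted p = 0.577). Cdk6, the second partner of D cyclins, averaged 6.29 in mimic, 7.18 in inhibitor and 6.32 in control cells, and was higher in inhibitor than in control cells (0.86, adjusted p = 0.00151). These were the only genes of the list called against control, 1 in each comparison. Of all genes, 3.55% were called for mimic and 14.9% for inhibitor. In inhibitor cells the list count was 2 without mimic 2 or inhibitor 3 and 3 without mimic 3. Mimic minus inhibitor gave 4 lower genes, against 19.9% of all genes. They were Cdk6 (-0.89), Wee1, a kinase that inhibits Cdks (-0.69), Ccna2 (-0.46) and Cdc25a, the phosphatase that activates Cdk2 (-0.31). Without inhibitor 1 Cdc25a lost its call (adjusted p = 0.0608), which left 3. The 7 genes had medians of -0.05 for mimic minus control, 0.10 for inhibitor minus control and -0.31 for mimic minus inhibitor. The first was 0.02 without mimic 3 and -0.15 without mimic 2, and the second 0.18 without inhibitor 2. After quantile normalization the medians were -0.05, 0.03 and -0.26.

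Of 30 listed E2F target genes of DNA replication, 28 were tested. In mimic cells 9 fell and none rose, where 2.45% of all genes were called lower and 1.1% higher. The list median was -0.21. Of the 28 differences 0 were above 0, against 5651 of all 11963 tested genes. The named falls were Mcm3 (-0.57, adjusted p = 0.00556), Uhrf1 (-0.49, 0.0307), Mcm5 (-0.49, 0.00161) and Lig1 (-0.42, 0.0309). Mcm3 and Mcm5 encode subunits of the replicative helicase, Uhrf1 a factor that maintains DNA methylation, and Lig1 a DNA ligase. The count of 9 falls rested on single arrays. It was 2 without control 1, control 2 or mimic 1, 3 without control 3, and 4 without inhibitor 3. Mcm3 and Mcm5 were called in each of the 9 fits, while Uhrf1 and Lig1 were lost in the 5 fits just named. After median centring of the arrays the count was 3.

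In inhibitor cells 17 of the 28 targets rose and none fell, where 11.1% of all genes were called higher and 3.76% lower. The count of 17 was 12 without control 1, control 3 or inhibitor 1, and 13 without control 2 or inhibitor 3. It was 21 without mimic 3. The list median was 0.29. Of the 28 differences 27 were above 0, against 6485 of all 11963 tested genes. Examples were Cdt1, a licensing factor of replication origins (0.54, adjusted p = 0.00215), Chaf1b, a histone chaperone subunit (0.54, 0.00378), Mcm3 (0.52, 0.0029) and Pola1, a DNA polymerase subunit (0.51, 0.0166), of which Pola1 was lost without control 1, control 2, inhibitor 1 or inhibitor 3. Between mimic and inhibitor 27 of the 28 were lower in mimic cells and none higher, against 19.9% and 6.91% of all genes. Mcm3 was at -1.09, Mcm5 at -0.93, Uhrf1 at -0.89 and Mcm6 at -0.83, and the list median was -0.51. As medians over the 28 genes relative to the control mean, the mimic arrays stood at -0.21, -0.15 and -0.33, the inhibitor arrays at 0.40, 0.26 and 0.26, and the control arrays at 0.02, -0.02 and 0.01, with no overlap between groups. Mimic 3 was the lowest and inhibitor 1 the highest array, as on the first principal component; without both, the counts were 11 lower, 18 higher and 23 lower for the 3 comparisons.

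**Figure D3:**
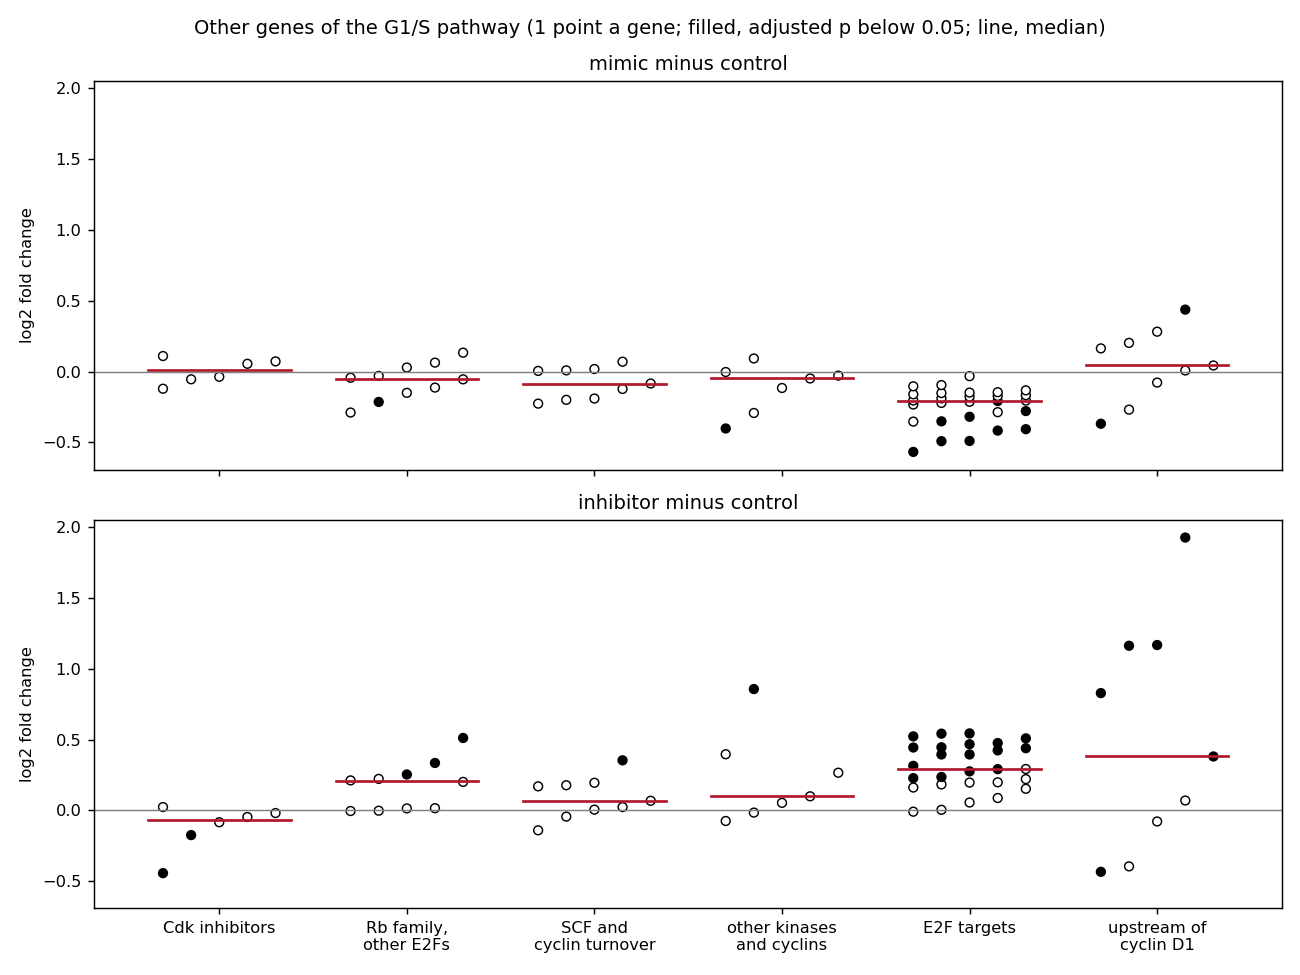
Log2 difference of every tested gene of the 6 lists, for mimic minus control (top) and inhibitor minus control (bottom). Points are genes, filled where called, and lines are list medians. The 28 E2F targets have medians of -0.21 and 0.29, and the Cdk inhibitors of 0.01 and -0.07.

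Genes that act upstream of cyclin D1, growth factors and immediate early transcription factors, gave 9 tested genes of 10. In inhibitor cells 5 rose and 1 fell, where 11.1% of all genes were called higher and 3.76% lower. Largest was Ereg, an EGF receptor ligand (1.93, adjusted p = 7.67e-06). Next were Hbegf, another such ligand (1.17), Myc, a transcription factor that promotes growth (1.16), and Fosl1, an AP-1 subunit (0.83). In control cells Ereg averaged 4.22, a level that can be background, and Hbegf 4.51, little above it. Fos, also an AP-1 subunit, fell by 0.43, with means of 3.94 in inhibitor and 4.37 in control cells, near the level filter. In mimic cells Hbegf rose (0.44, adjusted p = 0.0179, lost without control 1, control 3 or mimic 1). Fos fell there (-0.37, adjusted p = 0.00571, called in all 9 fits). Of all genes, 3.55% were called in mimic cells. The list count of 2 was 1 without control 1, control 3 or mimic 1 and 4 without mimic 3. Mimic minus inhibitor gave 5 lower genes, against 19.9% of all genes, with Ereg at -1.64, Myc at -0.96, Hbegf at -0.73 and Fosl1 at -0.66. The medians were 0.04 (0.03 without control 1 and 0.08 without control 2) and 0.38 for mimic and inhibitor minus control, and -0.34 for mimic minus inhibitor.

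Genes with profiles most like those of Ccnd1, Skp2 and Ccne1, the members with the largest differences from control, were found by the root mean square distance over the 9 arrays after each gene was set relative to its control mean. Nearest to Ccnd1 were Ero1a, an oxidase of the endoplasmic reticulum (distance 0.136), Tfrc, the transferrin receptor (0.153), Flvcr1 (0.168), Serpina3n (0.169) and Hsph1, a heat shock protein (0.181). These 5 differed from control by -0.35 to -0.02 in mimic cells, none called, and by 0.90 to 1.16 in inhibitor cells, all called.

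Nearest to Skp2 were Selenon, a selenoprotein (0.126), Tmeff1 (0.135), Cyld, a deubiquitinase (0.144), Rcbtb1 (0.147) and Gnl3l (0.147). In mimic cells all 5 were called lower, from -0.72 to -0.57, and in inhibitor cells they lay at 0.18 to 0.36, where Tmeff1 alone passed (adjusted p = 0.0362, above 0.05 in 6 of the 9 fits without 1 array). Selenon was called in mimic cells in each of the 9 fits, Tmeff1 in 8, Cyld in 7, Rcbtb1 in 5 and Gnl3l in 4. Nearest to Ccne1 were Zxdc (0.0616), Cspg4, a surface proteoglycan (0.0708), Urb1 (0.0729), Klhdc8a (0.0751) and Csf1, a macrophage growth factor (0.0768). They differed from control by -0.05 to 0.07 in mimic cells, none called, and by 0.61 to 0.70 in inhibitor cells, all called. The genes were picked for this likeness, so their values describe the profile and are no test of it.

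**Figure D4:**
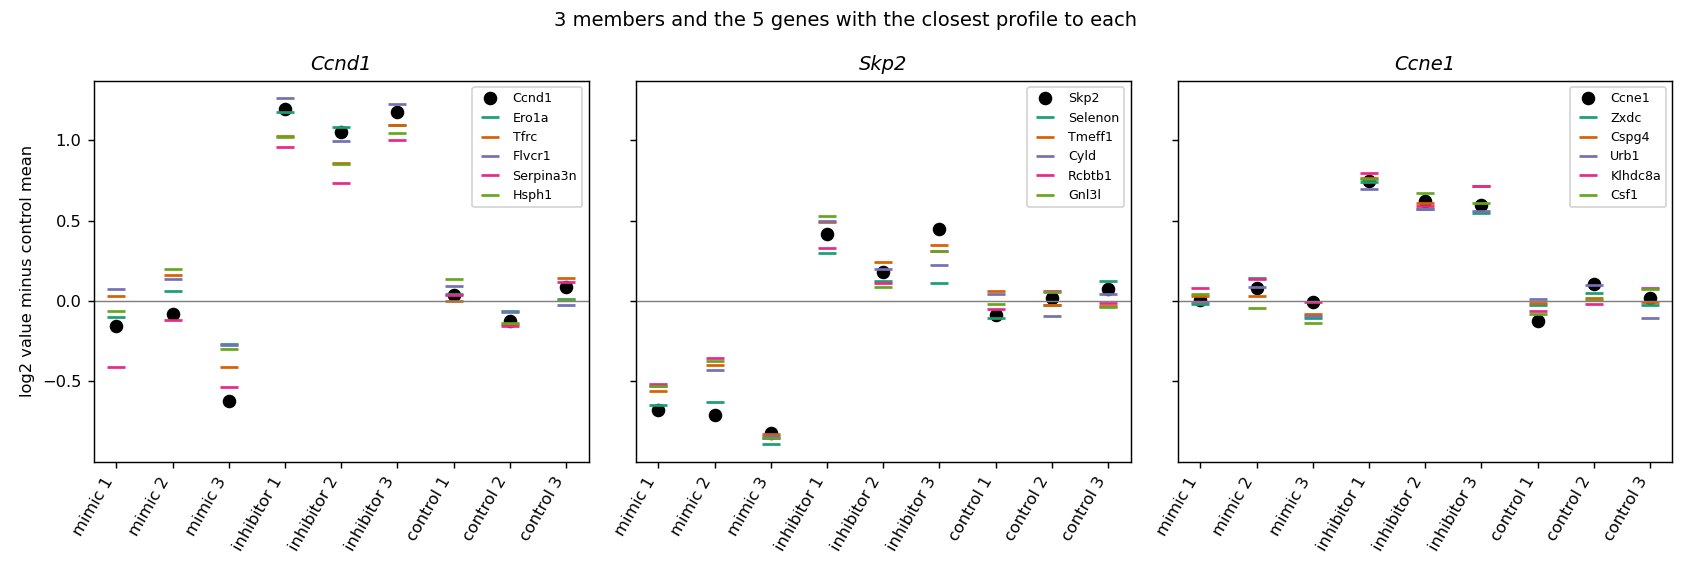
Profiles of Ccnd1, Skp2 and Ccne1 and of the 5 genes nearest to each, over mimic, inhibitor and control arrays from left to right. The vertical axis is the log2 level minus the gene's control mean. The Ccnd1 and Ccne1 profiles lie highest on the inhibitor arrays, and the Skp2 profile lies lowest on the mimic arrays. Ccnd1 is also at -0.62 on mimic 3, and Skp2 is above its control mean on the inhibitor arrays.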

How the data were processed

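Total RNA of 9 NIH-3T3 samples was measured on Affymetrix whole-transcript arrays. The deposited values are log2 expression by probe set, made by the authors with Partek 6.5 and RMA per the submitters' processing notes. RMA corrects background, sets probe distributions equal between arrays and summarizes each probe set. Global shifts between groups are thereby removed at the probe level, but the summarized values can still differ between arrays. The sources used here do not give a genome build. Values ran from 2.64 to 12.5, and array medians from 3.94 to 4.03. The 75th percentiles were 5.55 to 5.66 on the mimic arrays, 5.67 to 5.76 on the inhibitor arrays and 5.64 to 5.65 on the control arrays. The platform annotation named 1 gene for 21789 probe sets, several for 1621 and none for 5443; of several probe sets for 1 gene (999 genes), the one with the highest mean was used. Genes below the 40th percentile (3.86) were left out.

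One limma 3.58.1 model in R 4.3.3 (lmFit, eBayes; 6 residual and 4.37 prior degrees of freedom) held all 9 arrays with a coefficient per group. All adjusted p-values are from this test, Benjamini-Hochberg over 11963 genes, with a threshold of 0.05. The number of arrays limits the precision: the median residual SD was 0.08. At most 3.58% of values were equal between 2 arrays.

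Genes named were the 10 members, up to 4 called genes of each list and comparison by size, and the 5 nearest profiles of 3 members. Cdkn2a, Fos and the genes of the marker lists were named besides. The members and lists were chosen with earlier results of these data known. Cdkn1a, Areg and some other listed genes were not analysed here, and E2f6 and Ccna1 lay below the filter. Promoter sequences are RefSeq's (GRCm38.p6). The script was tested on simulated data. The alternatives changed the level filter, normalized quantiles, centred medians, fitted the 6 arrays of a comparison alone, used the replicate number as a block or a trend in eBayes, averaged the probe sets of a gene, left out each array and, added after seeing the data, left out mimic 3 and inhibitor 1 together. Python 3.11.15 and matplotlib 3.10.9 drew the figures.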

Additional observations from a re-analysis of the deposited data

How the results depend on the processing

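Of the 10 genes, 1 was called between mimic and control, 6 between inhibitor and control and 8 between mimic and inhibitor. Leaving out each array in turn gave 1 to 2, 4 to 6 and 6 to 8. Without mimic 3 and inhibitor 1 together the mimic count was 2, through Ccnd3 (0.30, adjusted p = 0.0231). The calls of Skp2 in mimic cells and of Ccnd1, Ccnd2 and Ccne1 in inhibitor cells were kept under every alternative run for them. Ccne2 in inhibitor cells and Ccnd3 between mimic and inhibitor lost their calls in the most alternatives, 8 and 13 of 19. E2f1 between mimic and inhibitor was -0.13 after quantile normalization (adjusted p = 0.187). With the replicate number as a block the 3 counts were 1, 5 and 7, Ccne2 (adjusted p = 0.0668) and Ccnd3 (0.0549) losing their calls. The samples share only a number: same-numbered arrays correlated over 0.1 in 5 of 9 pairs, with r from -0.59 to 0.22. Arrays of different numbers and groups had r from -0.58 to 0.63, highest for mimic 2 with inhibitor 1. These correlations were taken after each group's mean was removed. Variation shared across groups was thus not confined to the replicate number. E2f2 gave no value with a filter at the 50th percentile. Differences that changed sign were all uncalled and near 0. Over the fits without 1 array, mimic minus control ran from -0.035 to 0.080 for Ccne1, -0.082 to 0.0054 for Cdk4 and -0.024 to 0.083 for E2f2; inhibitor minus control from -0.066 to 0.028 for Ccnd3 and -0.090 to 0.010 for E2f2; and mimic minus inhibitor from -0.064 to 0.023 for Cdk4. Without both mimic 3 and inhibitor 1, mimic minus control was 0.0054 for Cdk4 and -0.024 for E2f2, inhibitor minus control 0.0087 for Ccnd3 and 0.010 for E2f2, and mimic minus inhibitor 0.038 for Cdk4 and -0.034 for E2f2. Inhibitor minus control was 0.0065 for Cdk4 and -0.018 for Cdk2 after quantile normalization, and 0.0038 for Cdk4 and 0.012 for Ccnd3 after median centring. The causes were not tested.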
